A study of Mus musculus with 6 samples.

Results

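The 9 genes described here mark plasma cells or serve their secretion: Sdc1, Tnfrsf17, Irf4, Prdm1, Xbp1, Mzb1, Derl3, Fkbp11 and Txndc5. They were taken by name from a fixed list and found by their Ensembl identifiers among 54532 deposited genes, and all 9 were present. RNA-seq was available for 6 libraries, 1 for each condition. Macrophages were from C57BL/6 mice that received PBS (WT), C57BL/6 mice that received iron dextran (WT/FE), mice carrying MLL-AF9 acute myeloid leukemia that received PBS (MA9) and leukemic mice that received iron dextran (MA9/FE). Leukemia cells were from MA9 and MA9/FE mice. The leukemia was started from c-kit+ marrow cells infected with a retrovirus that carries MLL-AF9 and GFP, and GFP+ leukemia cells were then transplanted into young C57BL/6 hosts, so the MA9 hosts kept their own blood cells beside the graft. The macrophages carry the tissue label spleen, but the study's methods name the bone marrow (BM), and this was not settled. The leukemia cells were labelled as BM, so the kind of cell and the labelled tissue cannot be told apart. Whether a library came from 1 mouse or from pooled mice is not given in the sources used here.

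Plasma cells are the antibody-secreting end stage of the B cell lineage. IRF4 and BLIMP-1, which Prdm1 encodes, switch off the B cell program and switch on the plasma cell program, and XBP1 enlarges the endoplasmic reticulum (ER). The enlarged ER is filled with chaperones, disulfide isomerases and degradation factors that fold antibody chains or remove the misfolded ones. Several of these genes also work in other cells: Irf4 and Prdm1 are used by macrophages, dendritic cells and T cells, and Xbp1 is active in many secretory and stressed cells.

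Since XBP1 is 1 of the 9, the promoters of the others were searched for the letters it is known to bind in its targets. RefSeq windows from 250 bases before to 50 bases after the start (GRCm38.p6) were at hand for 8 of the 9 genes, with 2 windows for Fkbp11, 3 for Txndc5 and 1 for each of the others. The unfolded protein response element, TGACGTGG on either strand, was found in 1 of the 8 genes, Txndc5, and in 0.714% of 27025 genes (0.676% of 32851 windows). The ER stress response element, CCAAT and CCACG with 9 bases between them on either strand, was found in 1 gene, Derl3, and in 0.137% of all genes (0.119% of windows). The shorter ACGTG, which lies within the first of these motifs, was found on either strand in Derl3, Fkbp11 and Txndc5, and in 21.8% of all genes (19.6% of windows). Its matches in Derl3 lie outside the ER stress response element. A composite element of ETS factors and IRF4, GGAA and GAAA with 2 bases between them on either strand, was found in 0 of the 8 and in 3.16% of all genes. The matches describe letters only, and the absence of a match says nothing about a factor. The stretches around the Derl3 and Txndc5 matches are shown because these are ER genes that the results below turn on, with the motif in capitals. In Derl3 it runs on the opposite strand, so its outer blocks read CGTGG and ATTGG. The Derl3 stretch is chr10:75893202-75893300 (+), with the motif 156 to 138 bases before the start, and the Txndc5 stretch is chr13:38528035-38528062 (-), with the motif 138 to 131 bases before one of its 3 annotated starts.
Derl3: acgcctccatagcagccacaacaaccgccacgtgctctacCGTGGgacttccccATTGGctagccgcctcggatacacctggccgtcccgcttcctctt
Txndc5: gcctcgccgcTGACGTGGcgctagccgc

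The deposited values are FPKM, that is, reads divided by exon length and by the depth of the library, so levels can be compared between genes. Whole reads could be recovered from them, and the depth ranged from 16085346 to 19518358 reads per library. Macrophage markers were present in the macrophage libraries, with Adgre1 (F4/80) between 32.2 and 54.5 FPKM. Adgre1 was also at 28.6 and 27.5 FPKM in MA9 and MA9/FE leukemia cells. The 10 macrophage markers summed to between 569 and 1172 FPKM in macrophages and to 1230 and 1568 FPKM in leukemia cells. Their sum thus did not set macrophages apart from leukemia cells. By a fold of at least 2, 5 of the 10 were lower and 1 higher in MA9 leukemia cells than in MA9 macrophages. In the MA9/FE pair 6 were lower and 1 higher. B cell markers were present in the macrophage libraries as well. Cd79a, the signaling chain of the B cell receptor, was between 415.0 and 802.3 FPKM in macrophages. In leukemia cells it was at 0.832 and 0.9996 FPKM. All 5 B cell markers were above 10 FPKM in each macrophage library, and their summed level was 1396 and 1336 FPKM in WT and WT/FE macrophages, 816 and 1340 FPKM in MA9 and MA9/FE macrophages, but at most 4.99 FPKM in leukemia cells. The 5 plasma cell markers, of which 4 are among the 9 genes, summed to 966, 926, 1937 and 2437 FPKM in the 4 macrophage libraries in the same order. Immunoglobulin genes held 2.64%, 2.99%, 5.35% and 6.80% of their reads. The 7 neutrophil markers summed to 5.73 and 4.15 FPKM in WT and WT/FE macrophages and to 1835 and 929 FPKM in MA9 and MA9/FE macrophages. Their sum was highest in MA9 and MA9/FE leukemia cells, at 5200 and 4093 FPKM, so these markers were not particular to neutrophils here. The 5 targets of MLL-AF9 summed to 107.7 and 116.4 FPKM in leukemia cells and to at most 2.61 FPKM in macrophages. The 5 erythroid markers summed to 77.1 and 174.1 FPKM in WT and WT/FE macrophages and to 221.6 and 418.2 FPKM in the MA9 and MA9/FE libraries, and 5 of 5 were higher by a fold of at least 2 in MA9 than in WT and 4 of 5 in MA9/FE than in WT/FE macrophages. The part that B cells, plasma cells, neutrophils or erythroid cells in the sorted fraction play in the values below was not tested, and in these bulk libraries fewer cells of a type and less RNA per cell cannot be told apart.

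The 9 genes together held 0.125% of the reads of WT macrophages (95% Wilson interval 0.123% to 0.126%) and 0.139% of those of WT/FE macrophages. The share was 0.238% (interval 0.236% to 0.240%) for MA9 and 0.248% (0.245% to 0.250%) for MA9/FE macrophages. For the leukemia cells it was 0.0461% (MA9) and 0.0483% (MA9/FE). The shares of both MA9 macrophage libraries lay above those of both WT libraries, and the leukemia cells lay below all macrophages. These intervals, like all intervals on reads below, cover counting error only and not the difference between mice.

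**Figure D1:**
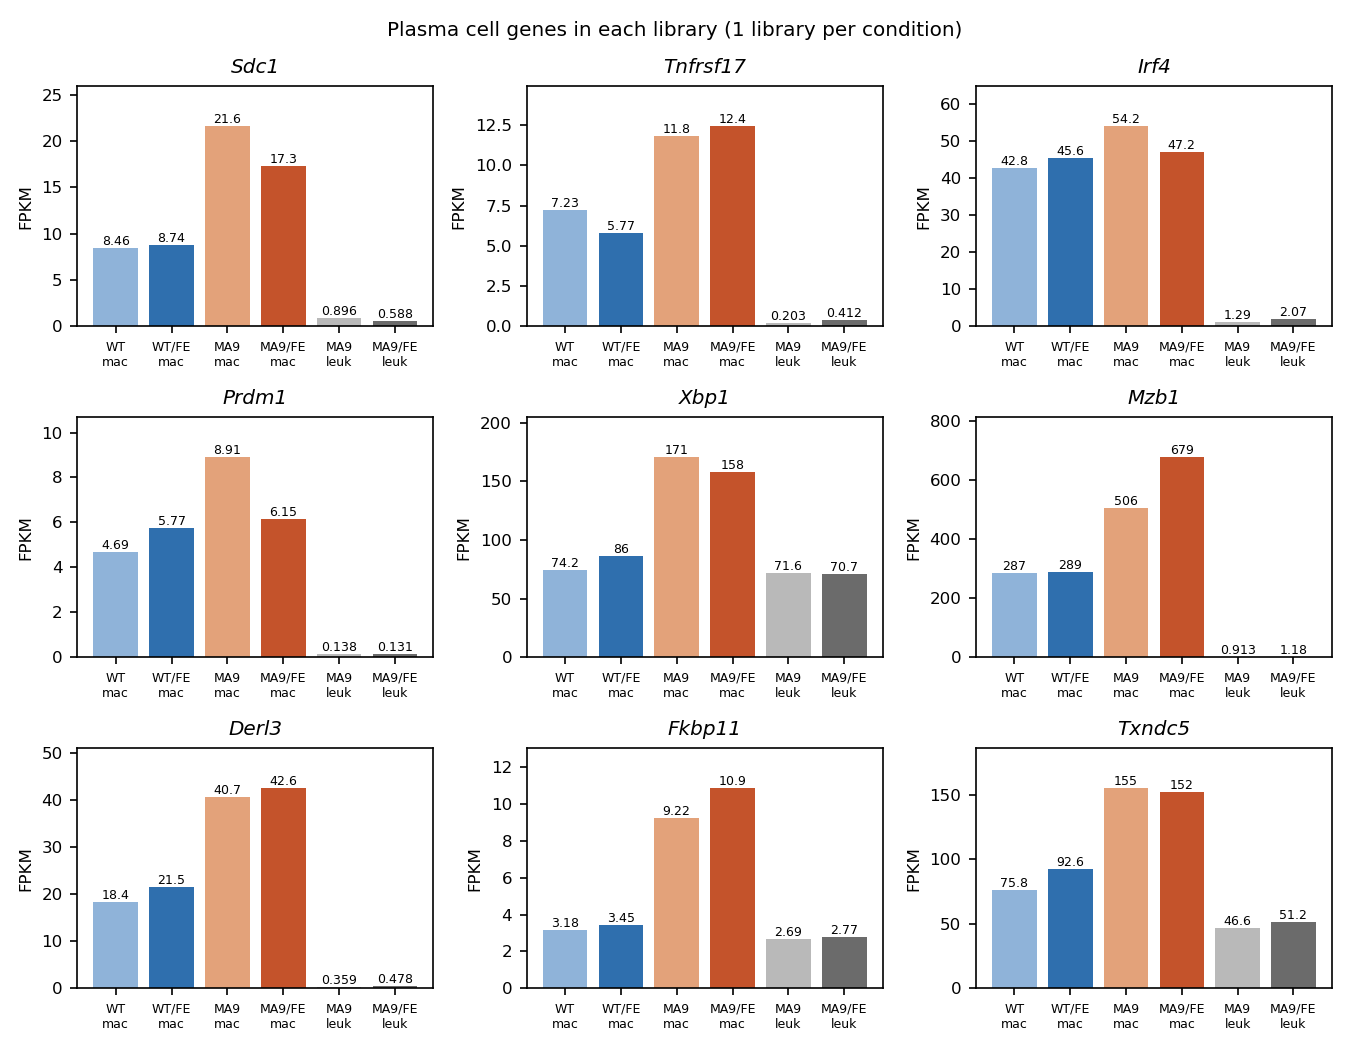
Level of each of the 9 plasma cell genes in FPKM (y axis, linear from 0) in each of the 6 libraries (x axis; mac, macrophages; leuk, leukemia cells). Bars are single libraries, so there are no error bars. The MA9 and MA9/FE macrophage bars are the tallest in every panel, though by only 1.03 times for Irf4 and 1.07 times for Prdm1. The share of all genes with this order was not computed. Xbp1, Fkbp11 and Txndc5 keep sizeable bars in leukemia cells.

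Sdc1 encodes syndecan-1 (CD138), the surface proteoglycan by which plasma cells are sorted (chr12:8771323-8793715, + strand, GRCm38). It stood at 8.46 and 8.74 FPKM in WT and WT/FE macrophages, at 21.6 and 17.3 FPKM in MA9 and MA9/FE macrophages, as opposed to 0.896 and 0.588 FPKM in MA9 and MA9/FE leukemia cells. The macrophages of leukemic mice were above those of mice without leukemia, by at least 1.98 times in FPKM, and the WT and WT/FE levels did not differ beyond counting error (ratio of scaled reads 1.03, 95% interval 0.916 to 1.15). Between the MA9 libraries the level with iron was lower (ratio 0.821, interval 0.757 to 0.890).

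Tnfrsf17 encodes BCMA, the receptor for the survival factors BAFF and APRIL on plasma cells (chr16:11313812-11320074, + strand). Its level was 7.23 and 5.77 FPKM in WT and WT/FE macrophages, 11.8 and 12.4 FPKM in MA9 and MA9/FE macrophages, against 0.203 and 0.412 FPKM in the leukemia cells, where only 3 and 6 reads fell on the gene. As for Sdc1, both libraries of leukemic mice lay above both libraries of mice without leukemia, by at least 1.64 times in FPKM. Neither pair that differs in iron alone was separated by counting error (WT/FE over WT 0.795, interval 0.589 to 1.07; MA9/FE over MA9 1.08, interval 0.862 to 1.35).

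Irf4, the factor that drives B cells toward plasma cells and is also used by macrophages and dendritic cells, lies at chr13:30749226-30766976 (+ strand). It was measured at 42.8 and 45.6 FPKM in WT and WT/FE macrophages and at 54.2 and 47.2 FPKM in MA9 and MA9/FE macrophages, a range of 1.27 times, and at 1.29 and 2.07 FPKM in MA9 and MA9/FE leukemia cells. The 4 macrophage libraries were closer to each other than for any other of the 9 genes, and WT/FE and MA9/FE macrophages were nearly level (ratio 1.05, interval 1.003 to 1.10).

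Prdm1 encodes BLIMP-1, the repressor that shuts off B cell genes (chr10:44437177-44528501, - strand). Its FPKM was 4.69 and 5.77 in WT and WT/FE macrophages, 8.91 and 6.15 in MA9 and MA9/FE macrophages, but only 0.138 and 0.131 in leukemia cells on 14 and 13 reads. MA9 macrophages stood above the other 3, while MA9/FE and WT/FE macrophages did not differ beyond counting error (ratio 1.08, interval 0.959 to 1.22).

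Xbp1, whose spliced form is the factor of the unfolded protein response (chr11:5520659-5525893, + strand), had another profile. Its level was 74.2 and 86.05 FPKM in WT and WT/FE macrophages, 170.8 and 158.3 FPKM in MA9 and MA9/FE macrophages, with 71.6 and 70.7 FPKM in the leukemia cells. Leukemia cells were thus close to WT macrophages in FPKM, and only the MA9 and MA9/FE macrophages stood well above the rest. Gene-level FPKM do not separate the spliced from the unspliced form.

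Mzb1, an ER cochaperone of B and plasma cells that helps to assemble and secrete antibodies, was the most abundant of the 9 in every macrophage library. It reached 286.7 and 289.1 FPKM in WT and WT/FE macrophages and 506.2 and 679.0 FPKM in MA9 and MA9/FE macrophages, against 0.913 and 1.18 FPKM in the leukemia cells. It alone made up between 51.7% and 60.3% of the summed FPKM of the 9 genes in macrophages and less than 1% in leukemia cells (0.732% and 0.908%). Its exons share bases with an annotated gene on the same strand and its reads came out whole in 1 of 6 libraries, so the read numbers behind its intervals are approximate. The other 8 genes were whole in all 6.

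Derl3 encodes a derlin that helps to draw misfolded proteins out of the ER (chr10:75893413-75895941, + strand). It was at 18.4 and 21.5 FPKM in WT and WT/FE macrophages, at 40.7 and 42.6 FPKM in MA9 and MA9/FE macrophages, against 0.359 and 0.478 FPKM in leukemia cells on 13 and 17 reads. Levels in the MA9 and MA9/FE macrophages did not differ beyond counting error (ratio 1.08, interval 0.997 to 1.16), and both were at least 1.89 times those of WT and WT/FE macrophages.

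Fkbp11 encodes a peptidyl-prolyl isomerase of the secretory pathway (chr15:98724366-98728198, - strand), and it was the least abundant of the 9 in WT and WT/FE macrophages. Its level was 3.18 and 3.45 FPKM in WT and WT/FE macrophages, 9.22 and 10.9 FPKM in MA9 and MA9/FE macrophages, next to 2.69 and 2.77 FPKM in leukemia cells. The gap between macrophages with and without leukemia, at least 2.67 times, was wider than for the other 8 genes, and WT macrophages were only slightly above the leukemia cells.

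Txndc5 encodes a disulfide isomerase of the ER (chr13:38500079-38528824, - strand). Its level was 75.8 and 92.6 FPKM in WT and WT/FE macrophages, 155.1 and 151.8 FPKM in MA9 and MA9/FE macrophages, compared with 46.6 and 51.2 FPKM in leukemia cells. The MA9 and MA9/FE macrophages were level with each other (ratio 1.004, interval 0.978 to 1.03) and above the rest. Short stretches of its exons overlap Bmp6 and Gm31834 on the other strand, which were at most 0.861 FPKM in any library. Whether the counting used strand is not given in the sources used here.

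Leukemia without iron was addressed by comparing MA9 with WT macrophages. All 9 genes were higher in MA9 macrophages, as were 49.5% of all genes tested. The counting interval of the ratio lay above 1 for each of the 9, and the share of all genes with such an interval was not computed. On the log2 scale of FPKM + 1 after TMM scaling (trimmed mean of M values between the 2 libraries), 5 of the 9 were higher by a fold of at least 2 and 0 were lower. Of the 16926 genes with at least 10 reads in either library, 3.79% were higher and 0.91% lower by this fold. The 5 were Fkbp11 (log2 difference 1.30, ratio of reads 2.92, interval 2.44 to 3.52), Sdc1 (1.27, ratio 2.58, interval 2.35 to 2.84), Xbp1 (1.21, ratio 2.32), Derl3 (1.12, ratio 2.24) and Txndc5 (1.04, ratio 2.06). Mzb1 (0.83), Prdm1 (0.81), Tnfrsf17 (0.65) and Irf4 (0.35) were under the fold. The median of the 9 log2 differences was 1.04, and that of all genes tested was -0.003. With 1 library on each side this compares 2 libraries, without a test of the condition, and the log2(FPKM + 1) scale understates differences of genes with low values.

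The same question in iron-treated mice is addressed by MA9/FE against WT/FE macrophages, which share no library with the pair above. Here 3 of the 9 were higher by a fold of at least 2 and 0 were lower, with 2.93% of 16571 genes higher and 1.64% lower. Over all genes 486 were higher and 272 lower, and with the trend on exon length removed 323 and 399, with 2 of the 9 higher. Without that correction the 3 past the fold were Fkbp11 (log2 difference 1.43, ratio 3.19, interval 2.66 to 3.85), Mzb1 (1.25, ratio 2.38, interval 2.31 to 2.46) and Tnfrsf17 (1.01, ratio 2.19, interval 1.66 to 2.90). Derl3 (0.97), Sdc1 (0.93) and Xbp1 (0.89) were just under it and Txndc5 was at 0.73 (ratio 1.66), and with 0.1 in place of 1 added to the FPKM the number at a fold of at least 2 was 5. The transcription factors Prdm1 (0.10) and Irf4 (0.07) were close to level, and the interval for Prdm1 held 1. The median of the 9 was 0.93, and that of all genes 0.01.

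**Figure D2:**
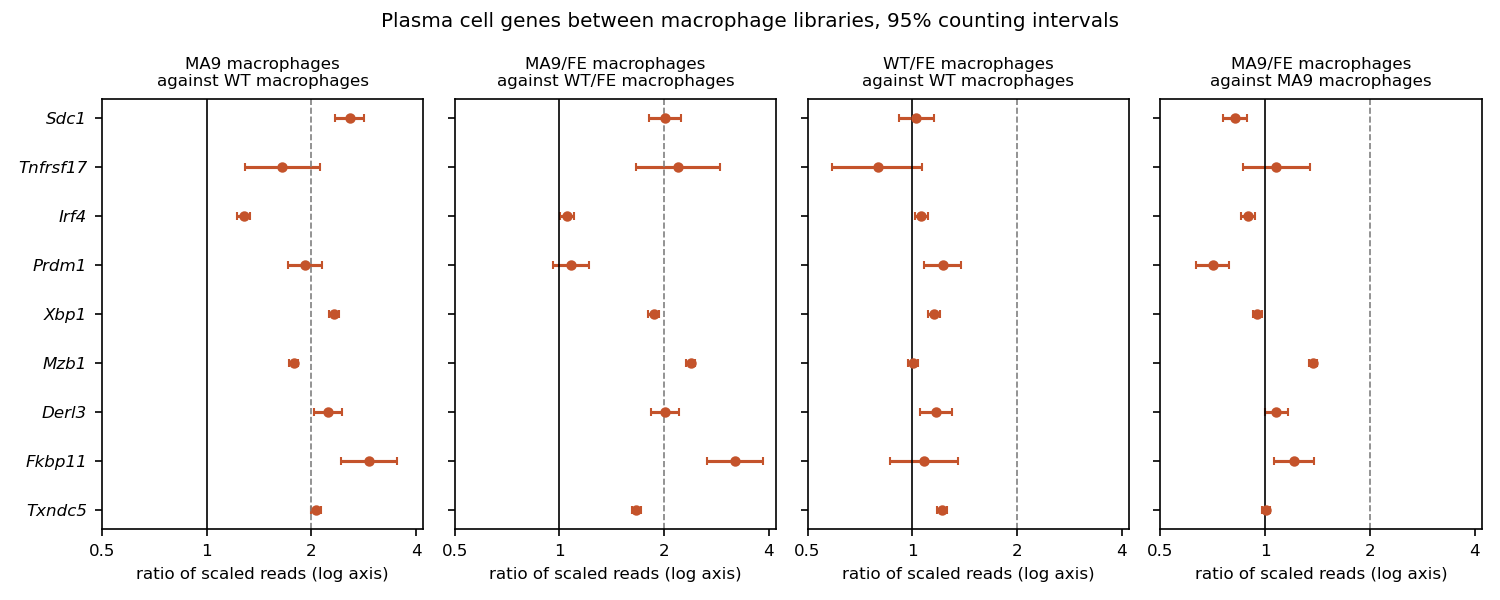
Ratio of scaled reads (x axis, log scale) of each gene (y axis) in 4 pairs of macrophage libraries; points are the ratio, bars its 95% counting interval, the solid line 1 and the dashed line 2. In the 2 leukemia panels all points lie right of 1, from 1.05 to 3.19, whereas in the 2 iron panels all lie between 0.708 and 1.38. Of all genes tested, 49.5% and 51.4% were higher in the 2 leukemia pairs.

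Both pairs were then combined in a limma fit over the 4 macrophage libraries with leukemia and iron as terms. It leaves 1 residual degree of freedom, so its error is the departure of the libraries from additivity and not the spread between mice. For leukemia, 5 of the 9 genes rose at a Benjamini-Hochberg adjusted p at or under 0.05 in limma and 0 fell, and 4.22% of 16268 genes rose and 0.719% fell. Fkbp11 differed by 1.37 ± 0.21 (log2 difference ± SE, adjusted p = 0.0032 in limma), Sdc1 by 1.11 ± 0.19 (adjusted p = 0.0061), Derl3 by 1.05 ± 0.19 (adjusted p = 0.0068), Tnfrsf17 by 0.84 ± 0.20 (adjusted p = 0.035) and Xbp1 by 1.06 ± 0.27 (adjusted p = 0.043). Mzb1 had a difference of 1.05 with an SE of 0.52 and did not pass (limma adjusted p = 0.34). Txndc5 (0.89 ± 0.27, limma adjusted p = 0.086), Prdm1 (0.46 ± 0.23, 0.34) and Irf4 (0.21 ± 0.21, 0.67) did not pass. When all genes with any read were tested, 0 of the 9 and 1 of 27385 genes passed for leukemia in limma. In that limma fit 6 of the 9 and 2537 of the 27385 genes had an unadjusted p under 0.05.

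The 2 iron comparisons use the same 4 macrophage libraries as the leukemia comparisons. Mice without leukemia come first. Between WT/FE and WT macrophages 0 of the 9 genes had a fold of at least 2, and 1.27% of 16754 genes did in either direction. The log2 differences ran from -0.29 (Tnfrsf17) to 0.28 (Txndc5), with a median of 0.09. Of the counting intervals 5 lay above 1 and 0 below, and the share of all genes with such intervals was not computed. Txndc5 was higher at a ratio of 1.22 (interval 1.18 to 1.26) and Mzb1 was level at 1.004 (interval 0.969 to 1.04).

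In leukemic mice, MA9/FE against MA9 macrophages, 0 of the 9 again had a fold of at least 2, against 2.46% of 16512 genes. The 9 went both ways and their median was 0.01. Mzb1 (log2 difference 0.46, ratio 1.38, interval 1.34 to 1.41) and Fkbp11 (0.25, ratio 1.21, interval 1.06 to 1.38) were higher with iron beyond counting error. Prdm1 (-0.44, ratio 0.708, interval 0.635 to 0.789), Sdc1 (-0.27, ratio 0.821), Irf4 (-0.16, ratio 0.893) and Xbp1 (-0.07, ratio 0.950) were lower. So all 3 transcription factors were on the lower side and the ER genes were level or higher, within a range smaller than the fold used. In the limma fit 0 of the 9 passed for iron, with 0.209% of all genes passing. There 0 of the 9 and 799 of 16268 genes had an unadjusted p under 0.05 in limma.

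Leukemia cells were set against macrophages of the same kind of mouse. All 9 genes were lower by a fold of at least 2 in MA9 leukemia cells than in MA9 macrophages, where 12.6% of 17044 genes were lower, and all 9 again in the MA9/FE pair, where 13.2% of 16842 were. The size of the gap split the genes. Mzb1 had 571.2 times as many scaled reads in MA9 macrophages as in MA9 leukemia cells (interval 369.6 to 935.5), Derl3 115.8 times, Prdm1 65.9 times, Tnfrsf17 59.7 times (interval 20.1 to 292.6, on 3 reads), Irf4 42.9 times and Sdc1 24.7 times (interval 19.1 to 32.4). The other 3 were 2 to 4 times as high in macrophages, with ratios of 3.51 for Fkbp11, 3.41 for Txndc5 and 2.44 for Xbp1. In the MA9/FE pair the ratios were 577.8 (Mzb1), 91.0 (Derl3), 48.1 (Prdm1), 30.8 (Tnfrsf17), 30.0 (Sdc1) and 23.3 (Irf4), against 3.996 (Fkbp11), 3.02 (Txndc5) and 2.29 (Xbp1). In a limma fit over these 4 libraries with the kind of cell and iron as terms, all 9 genes fell, at adjusted p from 6.13e-06 to 0.0034, as did 22.7% of 16291 genes.

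**Figure D3:**
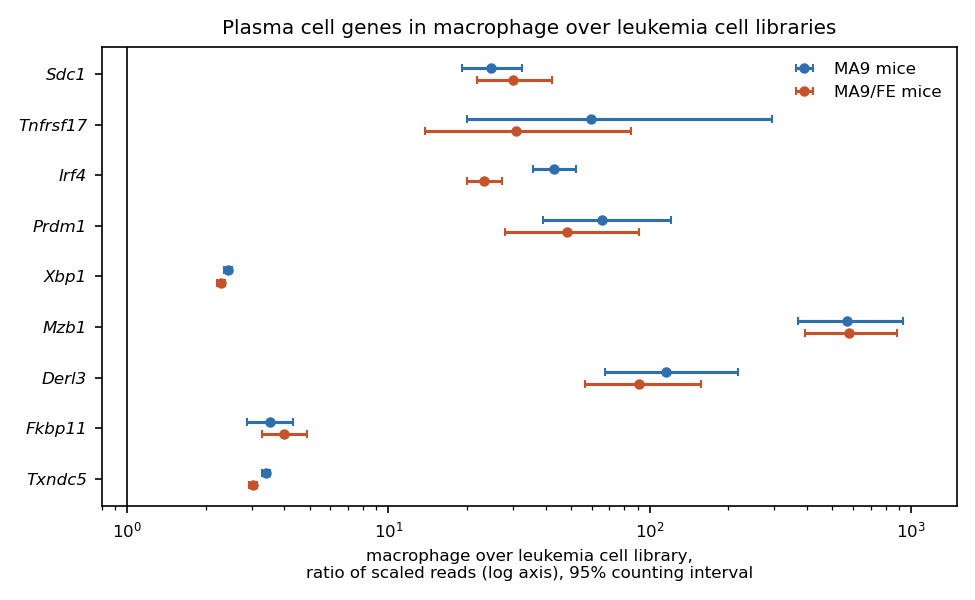
Ratio of scaled reads in macrophages over leukemia cells (x axis, log scale) for each gene (y axis) in MA9 and MA9/FE mice; points are the ratio and bars its 95% counting interval. Mzb1 lies furthest right, at 571.2 and 577.8, and Xbp1, Txndc5 and Fkbp11 lie between 2.29 and 3.996, apart from the other 6 genes.

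Against WT macrophages the leukemia cells were lower in FPKM for each of the 9 as well. The lowest macrophage level was 1.04 times the highest leukemia cell level for Xbp1, 1.15 times for Fkbp11 and 1.48 times for Txndc5, compared with 9.44 times for Sdc1 and 244 times for Mzb1. Within leukemia cells the order of levels was therefore another one than in macrophages, with Xbp1 the highest, followed by Txndc5 and Fkbp11.

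Iron in the leukemia cells (MA9/FE against MA9) could be read for 8 of the 9 genes, because Tnfrsf17 had under 10 reads in both libraries. None of the 8 had a fold of at least 2, against 0.863% of 15415 genes. Irf4 was higher with iron (log2 difference 0.42, ratio 1.60, interval 1.26 to 2.04, on 115 and 181 reads), as was Txndc5 (0.13, ratio 1.10, interval 1.05 to 1.15), and Sdc1 was lower (-0.26, ratio 0.656, interval 0.429 to 0.992, on 62 and 40 reads). The remaining 5 did not differ beyond counting error. In the fit over leukemic mice limma called 0 of 16291 genes (0.0%) for iron, with 657 genes but 0 of the 9 at an unadjusted p under 0.05.

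Levels were also read relative to a B cell gene, Cd79a, which was itself lower in MA9 (415.0 FPKM) than in WT macrophages (744.9 FPKM). Mzb1 stood at 38.5 FPKM per 100 FPKM of Cd79a in WT macrophages, 41.7 in WT/FE, and 122.0 and 84.6 in the MA9 and MA9/FE libraries, and Sdc1 at 1.14, 1.26, 5.21 and 2.16 in the same order. Between MA9 and WT macrophages Cd79a differed by -0.83 on the log2 scale and the median of all genes was -0.003. Most genes therefore rose per Cd79a in that pair. Between MA9/FE and WT/FE macrophages Cd79a differed by 0.23 and the median of all genes was 0.01. The share of all genes that rose per Cd79a was not computed. Per Cd79a, MA9 exceeded WT macrophages for all 9 genes, and MA9/FE exceeded WT/FE macrophages for 7 of the 9. The other 2 were Irf4, at 6.58 in WT/FE and 5.88 in MA9/FE, and Prdm1, at 0.833 and 0.767. Relative to Jchain, which encodes the chain that joins IgA and IgM units, Mzb1 was steadier, at 44.5, 48.1, 37.3 and 40.3 FPKM per 100 FPKM. Per Jchain, MA9 exceeded WT macrophages only for Sdc1, Xbp1, Derl3 and Fkbp11, and the rest of the 9 were lower. MA9/FE exceeded WT/FE macrophages only for Fkbp11 (0.575 and 0.645), and all the others were lower, among them Sdc1 (1.45 and 1.03). Jchain itself rose by 1.09 and 1.51 on the log2 scale in these pairs, so a gene that rose less was lower per Jchain. The counts per Cd79a and per Jchain thus depend on how each reference gene moved. No conclusion about the 9 genes is drawn from their contrast, and the share of all genes per Jchain was not computed.

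Other genes of the plasma cell and of its lineage were read from 4 further lists, of which the first holds 12 other plasma cell genes. In MA9 against WT macrophages 4 of the 12 were higher by a fold of at least 2 and 0 lower, and in MA9/FE against WT/FE macrophages 2 and 0, with medians of 0.54 and 0.23. Of all genes 3.79% and 2.93% were higher by this fold. In each pair 9 of the 12 were above 0, where 49.5% and 51.4% of all genes were. Jchain was at 645 and 601 FPKM in WT and WT/FE and at 1357 and 1686 FPKM in MA9 and MA9/FE macrophages. Log2 differences for leukemia without and with iron were 1.09 and 1.51 for Jchain, 1.36 and 1.19 for Eaf2, 1.65 and 0.79 for Tent5c and 1.11 and 0.42 for Ell2, the last being an elongation factor used in antibody production. Pou2af1, a coactivator of the B lineage with the second most reads of this list, differed by 0.49 and 0.34. Those below 0 in either pair, named after their values were seen, were Cd38 (-0.53 and -0.08), Slamf7 (-0.10 and -0.43), Tnfrsf13b (-0.27 and 0.11) and Zbtb20 (0.15 and -0.89). In the limma fit 2 of the 12, Eaf2 and Tent5c, rose with leukemia, as did 4.22% of all genes.

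The ER folding and secretion list holds 34 genes. In MA9 against WT macrophages 32 of the 34 were above 0, as were 49.5% of all genes, with a median of 0.44. By a fold of at least 2, 1 of the 34 was higher, as were 3.79% of all genes. It was Sec24d, a coat protein of ER export vesicles (1.20). In MA9/FE against WT/FE macrophages 32 were above 0, as were 51.4% of all genes, with a median of 0.54. Here 8 of the 34 were higher by the fold, as were 2.93% of all genes. Among the 8 were Creld2 (1.64), Manf (1.45), Fkbp2 (1.23) and the chaperone Hsp90b1 (1.15). The most read genes of the list, the chaperones Calr and Hspa5, differed by 0.36 and 0.39 without iron and by 0.78 and 0.85 with iron. In limma 5 of the 34 rose with leukemia and 0 fell, next to 4.22% and 0.719% of all genes. The 5 were Creld2, Manf, Fkbp2, Pdia6 and Spcs2, the last 2 named after their values were seen. Unlike the 9 genes, this list was not lower as a whole in leukemia cells, where limma called 4 genes higher and 9 lower than in macrophages, next to 17.9% and 22.7% of all genes. Calr was at 587 and 548 FPKM in leukemia cells and at 167 to 283 FPKM in macrophages.

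B cell identity genes went the other way. Of 15, 1 was above 0 in MA9 against WT macrophages, as were 49.5% of all genes, and the median was -0.59. Fcer2a (CD23), at -1.36, was the 1 gene lower by a fold of at least 2, as were 0.91% of all genes. Cd79a and Cd79b, the chains that signal for the B cell receptor, differed by -0.83 and -0.97. In MA9/FE against WT/FE macrophages the median was -0.21 and 4 of 15 were above 0, with Cd79a at 0.23, where 51.4% of all genes were above 0. In this pair 0 of the 15 passed the fold, next to 2.93% of all genes higher and 1.64% lower. limma called 0 of the 15 for leukemia, where 4.22% of all genes rose and 0.719% fell.

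Of 12 immunoglobulin constant regions, 4 were higher and 1 lower by a fold of at least 2 in MA9 against WT macrophages, and 7 and 0 in MA9/FE against WT/FE macrophages. Of all genes 3.79% were higher and 0.91% lower in the first pair, and 2.93% and 1.64% in the second. Ighg2c was at 158 and 917 FPKM in WT and WT/FE and at 4388 and 4253 FPKM in MA9 and MA9/FE macrophages. Igha was at 737, 796, 2129 and 2388 FPKM in the same order. Ighd, the constant region of mature naive B cells, was at 447, 453, 166 and 369 FPKM and was the one that was lower (-1.41). Igkc, the light chain region, differed by 1.11 without and 1.47 with iron. In limma 1 of the 12, Ighe, rose with leukemia and 0 fell, next to 4.22% and 0.719% of all genes. Ighe was named after its values were seen. Reads of near-identical constant regions may have been split between them by the counting.

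**Figure D4:**
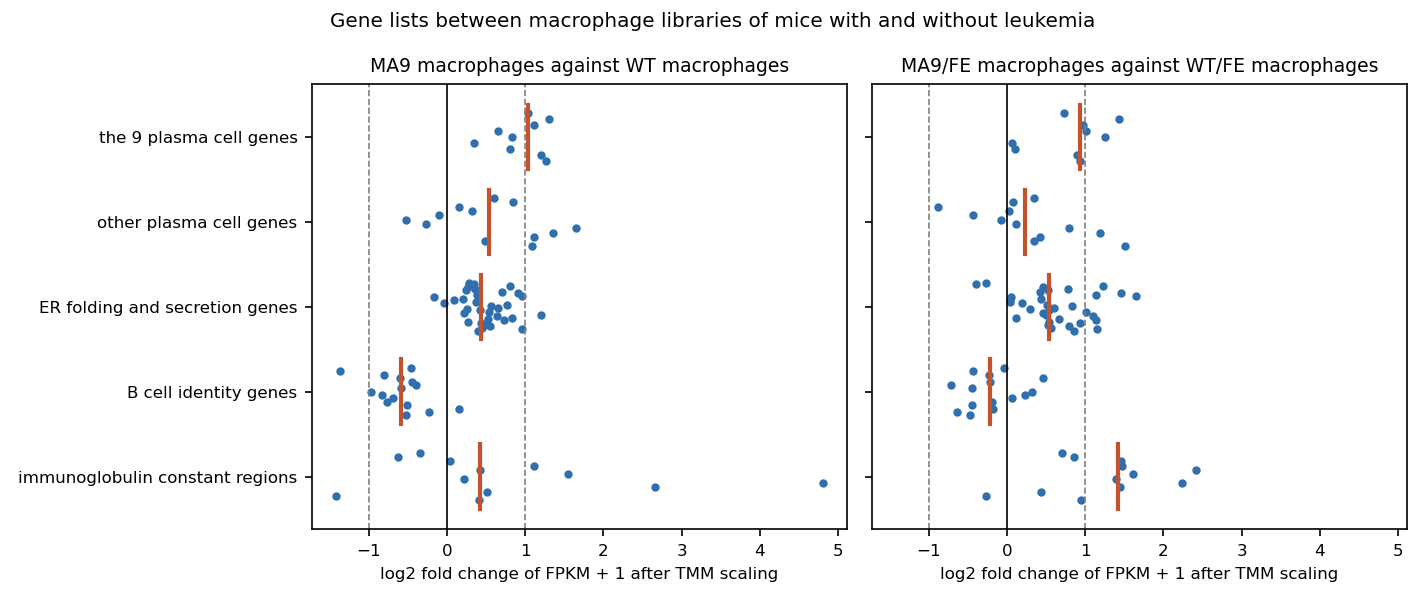
Log2 difference of FPKM + 1 after TMM scaling (x axis) of every tested gene of 5 lists (y axis) between macrophages with and without leukemia, without iron (left) and with iron (right). Blue points are genes, red bars list medians, the solid line 0 and the dashed lines a fold of 2 either way. The medians of the 9 plasma cell genes are 1.04 and 0.93, and those of the B cell identity genes -0.59 and -0.21.

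Profiles over the 6 libraries were compared by Pearson's r of log2(FPKM + 1) after TMM scaling. The 6 points share the large gap between macrophages and leukemia cells, which alone makes r high, so r is given as a description. Among pairs of the 9 genes r ran from 0.628 (Irf4 and Fkbp11) to 0.996 (Mzb1 and Derl3). Xbp1 and Fkbp11, with small gaps between macrophages and leukemia cells, were most like each other among the 9 (r = 0.987). Each had r between 0.628 and 0.810 with the 6 genes that had the larger gaps. Txndc5, also with a small gap, lay in between, with r from 0.861 to 0.954 with the others of the 9.

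Among 12061 genes with at least 100 reads in their highest library, the gene most like Mzb1 was Jchain (r = 0.999), and the closest to Sdc1 were Epor, the erythropoietin receptor, at 3.89, 3.89, 10.1 and 7.94 FPKM in the 4 macrophage libraries (r = 0.999), and Tent5c (r = 0.998). Txndc5 was most like Ube2j1, an ER-bound ubiquitin-conjugating enzyme (r = 0.997), followed by Mef2b and Ccr10, a chemokine receptor of antibody-secreting cells (r = 0.996). Xbp1 was most like Kcnn4, a potassium channel, at 8.81, 10.4, 20.9 and 18.6 FPKM in macrophages and 7.84 and 6.79 FPKM in leukemia cells (r = 0.988). Fkbp11 was most like Alad, an enzyme of heme synthesis (r = 0.996), Irf4 like Rgs1 (r = 0.999), Prdm1 like Arl5a (r = 0.998), Tnfrsf17 like Rab38 (r = 0.999) and Derl3 like Myzap (r above 0.999).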

How the data were processed

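Macrophages (GFP-, Gr-1 low, F4/80+, CD115 intermediate in the study's gate) and leukemia cells were sorted and sequenced on an Illumina NovaSeq. The submitters' processing notes name Bowtie2 2.2.5, RSEM and mm10. The deposited values are FPKM of 54532 Ensembl genes, of which 54495 had a symbol and an exon length in GENCODE M21. FPKM times exon length gave whole multiples of 1 read, within 0.05 reads, for 96.8% to 97.0% of values above 0, so reads and depth were recovered from the step. Reads of the rest are approximate.

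FPKM were scaled by TMM for each pair of libraries and 1 was added. Genes needed 10 reads in either library of the pair, and a fold of 2 or more was counted with no test, because each condition has 1 library. Ratios of scaled reads carry exact conditional binomial 95% intervals. limma 3.58.1 (R 4.3.3, trend, log2(FPKM + 1), 10 or more reads in 2 or more libraries) was fitted over the 4 macrophage libraries and over the 4 libraries of leukemic mice, with Benjamini-Hochberg adjusted p-values. On a pair of libraries simulated from the WT macrophage levels the fold rule recovered 90.5% of 200 genes changed 4-fold among 16760 (22 false calls). The changed genes were drawn only from genes with expected reads well above the minimum of 10. Recovery near that minimum was not tested. The macrophage fit recovered 100% of 200 genes changed by a log2 difference of 2 among 16268 (6 false calls). For leukemia in macrophages the plasma cell genes differed by at most 1.43 on the log2 scale, and recovery at such sizes was not tested. The spread between mice was not measured, so the numbers of false calls do not cover it. The alternatives were other scalings, pseudocounts, read minimums and a correction for exon length. Python 3.11.15 was used for the rest.

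The 9 genes, the lists and the tests were chosen with earlier results of these data known. Genes named are the 9, the 3 with the most reads and at most 4 past the fold in each list, the 3 genes most like each of the 9, and markers of cell types, apart from 1 item that is not reported here. No sequence or position is given for Mzb1.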

Additional observations from a re-analysis of the deposited data

Results flagged for a closer look

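Iron went with opposite directions in 4 pairs of comparisons among the 9 genes, in the single libraries at hand. In none of them was the difference between the responses tested. In each pair the counting intervals lie on opposite sides of 1, and the share of all genes that meet this was not computed. Irf4 differed by 0.084 on the log2 scale between WT/FE and WT macrophages (ratio of reads 1.06, 95% counting interval 1.02 to 1.11) and by -0.16 between MA9/FE and MA9 macrophages (0.893, 0.855 to 0.933). Prdm1 differed by 0.25 without leukemia (1.22, 1.08 to 1.38) and by -0.44 with leukemia (0.708, 0.635 to 0.789). Xbp1 differed by 0.20 without leukemia (1.15, 1.11 to 1.20) and by -0.07 with leukemia (0.950, 0.923 to 0.979). Irf4 also differed by -0.16 in macrophages of leukemic mice and by 0.42 in leukemia cells (1.60, 1.26 to 2.04). The intervals cover counting error only, and the spread between mice was not measured.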

How the results depend on the processing

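Among the 9, the number past a fold of 2 moved by over 1.5 times in 1 comparison and setting: MA9/FE against WT/FE macrophages gave 5 higher genes with a pseudocount of 0.1 in place of 3. The limma fit over macrophages called 0 of the 9 for leukemia without a minimum of reads in place of 5, where 27385 genes were tested instead of 16268. Without immunoglobulin reads in the total, the share of reads on the 9 genes was 0.128% for WT, 0.144% for WT/FE, 0.251% for MA9 and 0.266% for MA9/FE macrophages, a move due to the smaller total. Of 431 recomputed log2 differences of single genes, 412 moved by less than their counting error, 19 moved more, 11 of them with a pseudocount of 0.1 and 8 with the trend on exon length removed, and 4 changed sign, all in MA9/FE against MA9 macrophages: Tnfrsf17 (-0.06) and Derl3 (-0.06) without the length trend, and Txndc5 (-0.03) with total reads and with the median of ratios. The cause was not tested.

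The genes called for leukemia over all macrophage libraries were 803, between 742 and 995 under other scalings and pseudocounts, and 1 without a minimum. Removal of the length trend turned the balance of all genes in MA9/FE against WT/FE macrophages from 486 higher and 272 lower to 323 and 399, and in MA9/FE against MA9 macrophages from 198 and 208 to 125 and 298. For iron the limma calls were 34, between 28 and 68, and 0 without a minimum (924 at an unadjusted p under 0.05 in limma). No paired analysis was possible because each condition has 1 library and the labels give no replicate numbers. No library was left out, because the fits have 1 residual degree of freedom. Depth limits Tnfrsf17, Prdm1, Derl3 and Mzb1 in leukemia cells, where 3 to 26 reads stand behind each value.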
